A study of Mus musculus with 9 samples.

Results

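The sites described here are 2996 of the 18427 H3K4me3 intervals listed for wild-type mouse spermatocytes (16.3%). They were selected on 3 measured properties: each is under 1500 bp wide, overlaps an interval listed with both H3K4me3 and H3K36me3 in wild type (a double-marked interval), and overlaps no H3K4me3 interval listed for either of 2 Prdm9 mutants. Loss here means that no interval was listed, which is not the same as no histone mark. These values chose the sites, so width, double-marking and absence from the mutant lists are given as descriptions and none of them is tested. The wild-type mice were C57BL/6J (genotype PRDM9-WT). The EP mice were C57BL/6J-Prdm9<em2Kpgn>/Kpgn (PRDM9-EP/EP), in which glutamate 360 is replaced by proline, and the EK mice were C57BL/6J-Prdm9<em3Kpgn>/Kpgn (PRDM9-EK/EK), in which it is replaced by lysine. The labels call both changes severe catalytic hypomorphs. All groups were spermatocytes at 14 days after birth on the same strain background, with 2 H3K4me3 libraries and 1 H3K36me3 library per genotype. There is 1 list per genotype and kind, with positions and no heights. Whether the EK H3K4me3 list rests on both EK libraries is not stated, since the deposited description gives their merging for the signal track only. Replicate error and read depth are therefore unknown, and the intervals given for shares and medians cover sampling of listed intervals only. The labels mark 6 of the 9 libraries as earlier data, among them all wild-type libraries and neither mutant H3K36me3 library, so whether double-marking differs by genotype or by the origin of the data cannot be told apart. How the spermatocytes were isolated is not given in the sources used here, and peak lists at PRDM9-dependent sites cannot be set against cell type markers.

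PRDM9 is a meiosis-specific protein that binds DNA through an array of zinc fingers and trimethylates histone H3 at lysine 4 and lysine 36 on the nucleosomes beside its binding site. Nucleosomes that carry both marks are found at the sites where meiotic recombination starts in mice and are otherwise uncommon, since H3K4me3 usually marks gene starts and H3K36me3 the bodies of transcribed genes. The glutamate changed in both mutants lies in the PR/SET domain, the part of the protein that transfers the methyl groups.

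No genome sequence was used here, but 24 of the 2996 sites overlapped one of 32851 RefSeq promoter windows (GRCm38.p6, the build whose chromosome coordinates are those of mm10), each of which runs from 250 bases before to 50 bases after an annotated gene start. The share was 0.801% (95% Wilson interval 0.539 to 1.19%), against 182 of all 18427 wild-type intervals (0.988%, 0.855 to 1.14%). In 7 of these windows, all of long non-coding RNA genes, lay the midpoint of a site, and as the nucleosomes that PRDM9 marks flank its binding site, these are the stretches shown first. Each is given 5′ to 3′ on the strand of the gene, for up to 100 bases around the midpoint as far as the window reaches, with up to 20 bases centred on the midpoint in capitals.
Gm39839, chr2:62619946-62620001, plus strand: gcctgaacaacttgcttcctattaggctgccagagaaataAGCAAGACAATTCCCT
Gm46886, chr4:81934074-81934173, plus strand: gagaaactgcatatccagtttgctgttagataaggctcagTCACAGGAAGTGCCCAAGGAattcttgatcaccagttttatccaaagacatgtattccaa
Gm36337, chr2:173051031-173051130, minus strand: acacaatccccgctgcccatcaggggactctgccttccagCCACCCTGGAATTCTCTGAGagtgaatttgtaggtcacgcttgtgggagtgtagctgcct
Gm46829, chr3:144557067-144557166, minus strand: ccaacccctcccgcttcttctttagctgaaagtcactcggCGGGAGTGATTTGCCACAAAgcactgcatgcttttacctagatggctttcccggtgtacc
Gm28643, chr2:45132194-45132293, plus strand: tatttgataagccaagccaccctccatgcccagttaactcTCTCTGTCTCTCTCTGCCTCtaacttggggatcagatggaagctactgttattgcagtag
4921508D12Rik, chr2:132424491-132424571, plus strand: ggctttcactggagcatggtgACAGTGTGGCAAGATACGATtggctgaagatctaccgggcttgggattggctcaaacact
Gm41891, chrX:18147317-18147372, minus strand: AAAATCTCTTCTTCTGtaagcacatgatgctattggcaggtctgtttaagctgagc
The site at Gm39839 was 932 bp wide with 821 bp double-marked, and the nearest H3K4me3 interval lay 521.7 kb away in EP and 950.5 kb away in EK. At Gm46829 and Gm36337 the double mark covered the whole site, of 1231 and 1270 bp. Of the 24 windows, 19 belonged to long non-coding RNA genes. These had a median G+C content of 49% and a median of 3 CG dinucleotides, against 48.3% and 4 over all 11588 windows of such genes. The other 5, of protein-coding genes, had medians of 43% and 3, against 56.3% and 13 over 21262 windows. The 73 protein-coding windows that overlapped any wild-type interval had medians of 48.7% and 4, so a low number of CG dinucleotides was not particular to these 5. All these values are for whole windows, of which an interval may cover only a part. The letters TATAAA were found on either strand in 3 of the 24 windows (12.5%) and in 13.6% of all windows.

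The 5 windows of protein-coding genes are shown because they are where a site reached into the promoter window of such a gene. The capitals mark the bases inside the wild-type H3K4me3 interval, and up to 20 bases outside it are in lower case.
Wfdc16, chr2:164638753-164639052, minus strand: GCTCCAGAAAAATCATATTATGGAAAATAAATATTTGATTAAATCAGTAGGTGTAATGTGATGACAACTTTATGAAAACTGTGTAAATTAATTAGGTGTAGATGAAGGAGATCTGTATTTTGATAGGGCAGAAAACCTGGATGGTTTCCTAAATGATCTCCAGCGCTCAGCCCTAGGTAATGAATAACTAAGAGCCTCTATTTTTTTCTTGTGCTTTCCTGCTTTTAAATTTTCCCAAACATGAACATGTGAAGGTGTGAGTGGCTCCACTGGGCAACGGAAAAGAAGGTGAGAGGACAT
Pak3, chrX:143693249-143693336, plus strand: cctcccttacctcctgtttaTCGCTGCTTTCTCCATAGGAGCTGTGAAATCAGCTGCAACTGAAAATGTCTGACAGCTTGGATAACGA
Psen2, chr1:180245901-180245978, minus strand: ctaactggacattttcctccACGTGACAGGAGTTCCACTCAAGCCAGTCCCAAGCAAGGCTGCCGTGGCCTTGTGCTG
Defb30, chr14:63037972-63038096, minus strand: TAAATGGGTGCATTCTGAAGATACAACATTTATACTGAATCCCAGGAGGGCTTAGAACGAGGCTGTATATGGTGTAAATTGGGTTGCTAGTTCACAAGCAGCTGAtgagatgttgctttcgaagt
Il23r, chr6:67492042-67492105, minus strand: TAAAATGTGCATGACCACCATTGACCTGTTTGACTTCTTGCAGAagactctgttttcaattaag
Wfdc16 encodes a protein of the WAP four-disulfide core family, and its whole window lay inside a site of 1434 bp, 1340 bp of it double-marked. Pak3 encodes a p21-activated kinase. Its site of 1331 bp covered 68 bases of the window, including the annotated start, and the nearest mutant interval was 8.02 kb away in both EP and EK. Psen2 encodes presenilin 2, a catalytic subunit of gamma-secretase, and its start lay in a site of 1316 bp, 58 bases of which were in the window. Defb30, a beta-defensin gene, had 105 bases of its window in a site of 1324 bp, none of them in the double-marked part, which covered 82.0% of that site. Il23r, the gene of an interleukin-23 receptor subunit, had 44 bases of its window in a site of 1219 bp, and the annotated start lay outside the site. The nearest EP and EK intervals lay between 8.02 and 580.3 kb from these 5 sites.

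One annotated microRNA hairpin lay in a site, at chromosome 9 within the span of Nbeal2. It was found after the values were seen and is shown because its 117 bases lay wholly in the double-marked interval. The mature RNA from RefSeq has its seed, bases 2 to 8, in capitals.
mmu-miR-8107, chr9:110636065-110636085, minus strand: uGGAAACUaguggcugggaca
The site was at chr9:110635894-110636967 and was double-marked over all of its 1074 bp. An EP interval lay 1.83 kb away and the nearest EK interval 472.0 kb away. Of all wild-type intervals, 10 overlapped a hairpin.

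The name narrower holds only against the broad double-marked intervals, of 1500 bp or more. The 2996 sites had a median H3K4me3 width of 1242 bp (95% interval 1228 to 1253 bp), with a range of 261 to 1499 bp. The median over all 18427 wild-type intervals was 1126 bp, and over the 2415 double-marked intervals of 1500 bp or more that were lost in both mutants it was 1742 bp. The 389 double-marked intervals under the limit that a mutant kept had a median of 912 bp (859 to 979 bp), below that of the sites. Together the sites covered 3.57 Mb of the 22.6 Mb in the wild-type list. Of the sites, 1678 (56.0%) were 1200 to 1499 bp wide, 944 were 900 to 1199 bp, 305 were 600 to 899 bp, 68 were 300 to 599 bp and 1 was narrower. The limit of 1500 bp fell where intervals were dense. In the 100 bp just inside it lay 626 sites with a median double-marked width of 1320 bp, and in the 100 bp just outside it lay 575 lost double-marked intervals with a median of 1392 bp.

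Of the 3385 double-marked wild-type intervals under 1500 bp, 2996 (88.5%) appeared in neither mutant list. Over all wild-type H3K4me3 intervals, 76.7% appeared in neither, 80.1% were absent from the EP list and 82.3% from the EK list. Double-marking was present in 37.4% of all wild-type intervals and 25.0% of those under 1500 bp. Of all double-marked intervals, 78.5% were in neither mutant list. Without regard to double-marking the share under 1500 bp was 79.0%, for H3K4me3-only intervals under 1500 bp it was 75.8%, and for double-marked intervals of 1500 bp or more it was 68.9%. The rule used this contrast, and nothing is read from these shares. Of the 389 that were listed in a mutant, 253 were in both lists, 88 in EP alone and 48 in EK alone. Presence differed along the width range. Among double-marked intervals of 300 to 599 bp, 51.9% were lost in both mutants (68 of 131), rising to 71.1% at 600 to 899 bp, 90.6% at 900 to 1199 bp and 94.3% at 1200 to 1499 bp. H3K4me3-only intervals of the same widths were lost at 39.3%, 69.6%, 89.6% and 92.7%. From 600 bp up, the shares of double-marked and H3K4me3-only intervals lay within 2 percentage points of each other in each class. All 412 double-marked intervals of EP and all 243 of EK lay inside an H3K4me3 interval of their own genotype. The rule therefore fixed in advance that none of the 2996 sites overlapped a double-marked interval of EP or EK.

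**Figure D1:**
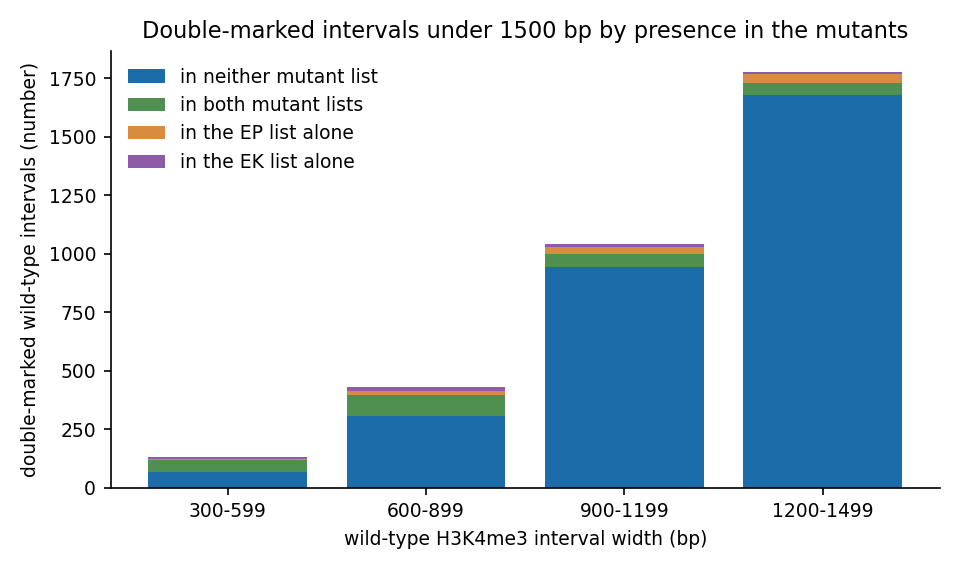
Number of double-marked wild-type intervals in each class of H3K4me3 width (bp), stacked by presence in the mutant H3K4me3 lists. The part in neither list, which is the set of sites described here, grows from 68 at 300 to 599 bp to 1678 at 1200 to 1499 bp, and 4 intervals under 300 bp are not drawn.

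The double mark covered at least 50% of the H3K4me3 interval in all but 16 of the 2996 sites (0.534%). The exceptions were 50 (0.725%) among all 6892 double-marked wild-type H3K4me3 intervals, so this was common to the whole list. Every site held exactly 1 double-marked interval, lying wholly within the H3K4me3 interval, with a median width of 1113 bp (1103 to 1121 bp) and a range of 183 to 1499 bp. It covered a median of 96.3% of the H3K4me3 interval (95.8 to 97.0%), and 2003 sites (66.9%) were covered to at least 90%. Over all 6892 the median was 94.0%, and 61.3% were covered to at least 90%, as were 67.9% of the 389 kept intervals under 1500 bp. In all 6892 the double-marked interval lay wholly inside. In 1222 sites (40.8%, 39.0 to 42.6%) both borders of the 2 intervals were the same to the base. Among all 6892, 32.5% shared both borders. The broad double-marked intervals lost in both mutants shared both borders in 21.7% (20.1 to 23.4%), and the 389 kept intervals under 1500 bp in 53.2% (48.2 to 58.1%). The share moved with width. It was 58.8% at 300 to 599 bp, 74.4% at 600 to 899 bp, 52.4% at 900 to 1199 bp and 27.4% at 1200 to 1499 bp, and 20.6% in broad lost intervals of 1500 to 1799 bp. In the same classes under 1500 bp the kept intervals shared both borders in 69.8%, 57.3%, 51.0% and 38.6%, so neither group was the higher throughout. Neither border was shared in 626 sites (20.9%), the low-coordinate border alone in 626 (20.9%) and the high-coordinate border alone in 522 (17.4%). Over all 6892 these shares were 30.7%, 20.1% and 16.7%. Where the double mark stopped short, it left a median of 93.5 bp on the low-coordinate side (1148 sites) and 102 bp on the high-coordinate side (1252 sites). The double-marked interval held the midpoint of the H3K4me3 interval in 2980 sites (99.5%), so in only 16 sites did it lie to one side of the centre. It held the midpoint in 99.4% of all 6892. How shared borders arise in the authors' lists is not given in the sources used here.

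**Figure D2:**
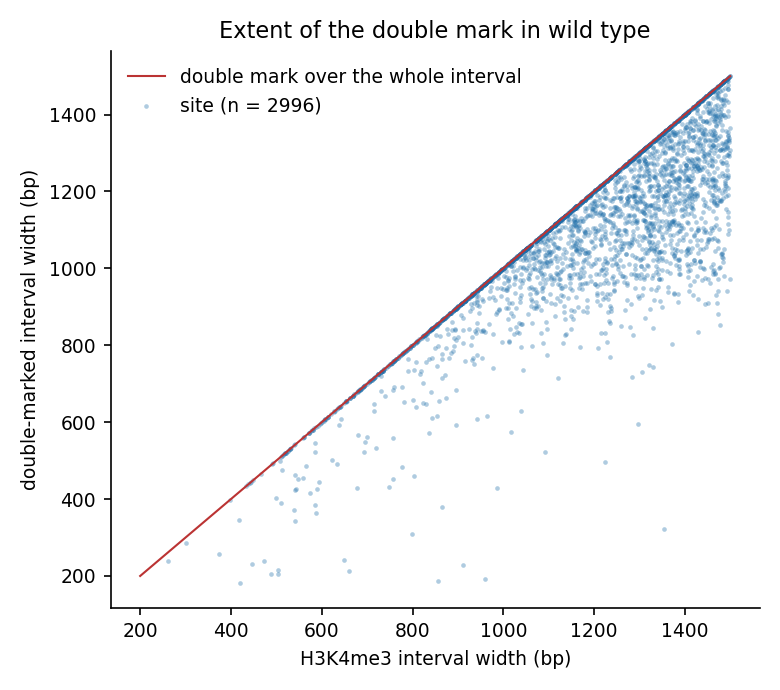
Width of the double-marked interval against width of the H3K4me3 interval (both bp) for the 2996 sites in wild type, 1 point per site, with a line where the 2 are equal. Of the points, 1222 lie on the line, and those with the smallest coverage lie far below it. The smallest double-marked width of any site is 183 bp.

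The sites at the ends of these ranges were as follows. The widest, of 1499 bp, was a tie of 5 sites. Of these, chr1:160062709-160064207 lay in 4930523C07Rik and chr13:103189584-103191082 in Mast4, a microtubule-associated kinase gene, where the double mark covered all 1499 bp. The site chr16:54627743-54629241, in no protein-coding gene, was covered to 87.3%. The narrowest sites were chr3:58488852-58489112, with 261 bp of H3K4me3 and 239 bp of double mark, and chr8:100779357-100779656, with 300 and 287 bp. Both narrowest sites lay beside another wild-type interval, 115 bp away (503 bp wide) and 27 bp away (986 bp wide). The fourth narrowest, chr3:88784748-88785144, was 397 bp wide, and its nearest neighbour was 73.8 kb away. The smallest coverage was at chr16:11258087-11259046, outside protein-coding genes, where 193 of 960 bp (20.1%) were double-marked. It was followed by chr6:38340665-38341521 in Zc3hav1, the gene of an antiviral zinc-finger protein, with 188 of 857 bp (21.9%), and chr9:66193792-66195145 in Dapk2, a death-associated kinase gene, with 323 of 1354 bp (23.9%). In Hpse2, the heparanase 2 gene, the site chr19:43086837-43087747 had 228 of 911 bp double-marked. In each of these 4 the double mark sat against one border and left 669 to 1031 bp on the other side. Full coverage was a tie of 1222 sites, the first of which by position were in Lypla1 (686 bp), Pcmtd1 (680 bp), Ogfrl1 (1156 bp) and Adgrb3 (1288 bp), all on chromosome 1.

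The sites lay in the span of a protein-coding gene as often as the wild-type list as a whole, with 1619 of 2996 (54.0%, 52.3 to 55.8%) against 53.9% of all wild-type intervals (53.2 to 54.6%). The narrow H3K4me3-only intervals lost in both mutants stood at 50.9% (49.8 to 52.0%), the broad double-marked intervals lost in both at 43.9% (41.9 to 45.9%) and the narrow double-marked intervals kept in a mutant at 62.5% (57.6 to 67.1%). The difference between the sites and the H3K4me3-only lost intervals varied with width. At 600 to 899 bp, 69.2% of the sites were in a gene (211 of 305, 63.8 to 74.1%), against 49.1% of H3K4me3-only lost intervals (47.2 to 51.0%). At 900 to 1199 bp the shares were 56.8% (53.6 to 59.9%) and 49.2% (47.5 to 51.0%). At 1200 to 1499 bp they were 49.8% (47.4 to 52.2%) and 57.4% (54.8 to 59.9%), with the sites now the lower of the pair. At 300 to 599 bp, with 68 sites, they were 54.4% (42.7 to 65.7%) and 52.2%. The double-marked intervals that a mutant kept lay in a gene in 66.9% at 600 to 899 bp, 57.1% at 900 to 1199 bp and 52.5% at 1200 to 1499 bp, each within 3 percentage points of the sites, and in 76.2% at 300 to 599 bp (64.4 to 85.0%). Between the lost groups the difference thus changed sign within the width range, and no test was made, because intervals of 1 list are not replicates. Exons and introns were not told apart here.

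Sites close to a gene end were few. A start or end of a protein-coding gene lay within 1 kb of 103 sites (3.44%, 2.84 to 4.15%) and within 5 kb of 407 (13.6%, 12.4 to 14.9%). The corresponding shares over all wild-type intervals were 3.86% and 15.7%. They were 2.92% and 12.8% for the H3K4me3-only intervals under 1500 bp lost in both mutants. For the broad double-marked intervals lost in both they were 2.98% and 10.3%. Among the double-marked intervals under 1500 bp that a mutant kept, 9.25% had a gene end within 1 kb (6.76 to 12.5%) and 39.6% within 5 kb (34.9 to 44.5%). Kept and lost intervals were apart in each width class from 300 bp. At 300 to 599 bp, 19.1% of the lost (11.5 to 30.0%) and 54.0% of the kept (41.8 to 65.7%) had a gene end within 5 kb. At 600 to 899 bp the shares were 15.4% and 46.0%, at 900 to 1199 bp 13.6% and 32.7%, and at 1200 to 1499 bp 13.1% (11.5 to 14.7%) and 28.7% (20.8 to 38.2%). The median gap to a gene end was 42.1 kb for the sites and 10.8 kb for the kept intervals. It was 33.5 kb over all wild-type intervals, 36.7 kb for the H3K4me3-only lost intervals and 57.7 kb for the broad double-marked lost ones.

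**Figure D3:**
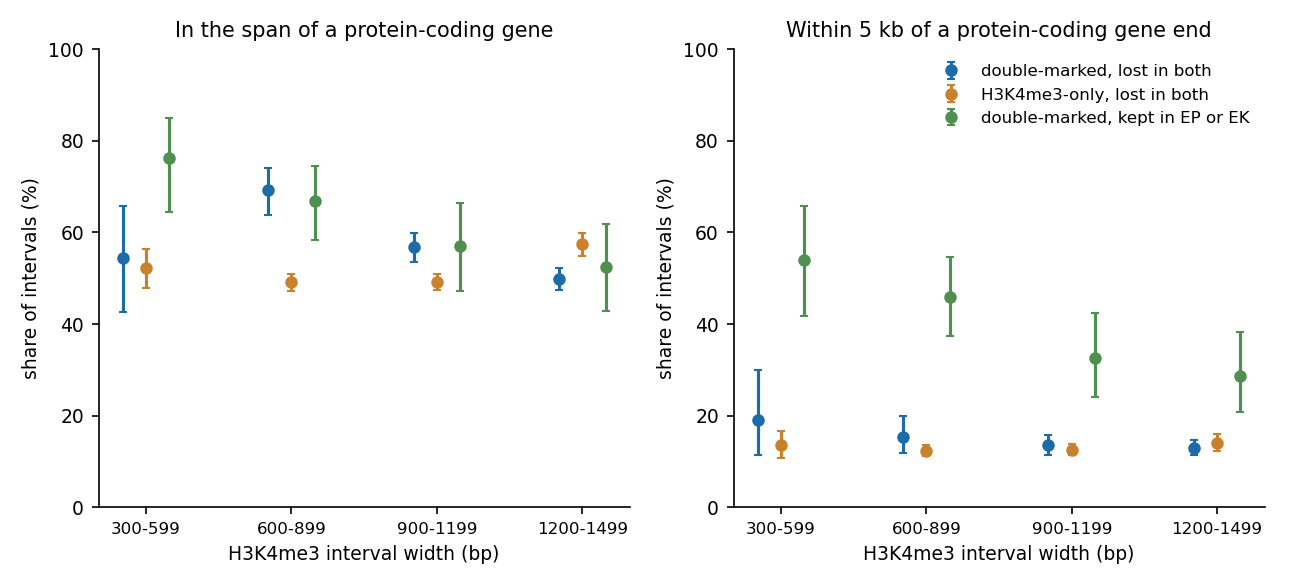
Share (%) of intervals that overlap a protein-coding gene span (left) or lie within 5 kb of a protein-coding gene end (right), by H3K4me3 width (bp), for the sites described here, for H3K4me3-only intervals lost in both mutants and for double-marked intervals kept in a mutant. Points are shares and bars 95% Wilson intervals. On the left the order of the lost groups changes between 900 to 1199 bp and 1200 to 1499 bp, and on the right the kept intervals are the highest in every class.

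In all, 1275 of 21896 protein-coding genes (5.82%) had at least 1 site in their span, 1020 of them exactly 1 and 255 more than 1. Any wild-type interval was present in 24.4% of protein-coding genes. The genes with a site had a median span of 145.9 kb, against 17.1 kb for all protein-coding genes and 69.3 kb for those with any wild-type interval. A longer span is more likely to hold an interval of any set, and more so for a smaller set. Nothing about the sites is therefore read from these lengths. Macrod2, which encodes an enzyme that removes ADP-ribose and spans 2.00 Mb of chromosome 2, held the most, with 8 sites of 579 to 1434 bp among its 20 wild-type intervals. Of those 20, 13 were double-marked, 6 were H3K4me3-only and lost, and a single one was listed in EP and a different one in EK. Tmem178b, a transmembrane protein gene of 383.9 kb, held 5 sites among only 6 wild-type intervals, or 13.0 sites per Mb. Dock1, which encodes an activator of the GTPase Rac, held 5 of 11, and Ptprn2, which encodes a phosphatase-like protein of secretory vesicles, 5 of 10. In Ptprn2 none of the 10 intervals was listed in EP or EK. A tie of 19 genes had 4 sites each, of which the first by position were Spag16, Lrp1b, Fmn1, Ptprt, Rsrc1 and Dab1. Spag16 encodes a protein of the sperm flagellum axoneme, and its 4 sites of 668 to 1309 bp made up all of its double-marked intervals. Lrp1b encodes a lipoprotein receptor relative and held 4 sites among 14 intervals, while Dab1, an adaptor in reelin signalling, held 4 among 8.

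Genes of meiotic recombination were compared as a list of 65 genes for strand break formation, strand exchange, the synaptonemal complex, crossing over and H3K36 methylation. Of these, 21 (32.3%) had a wild-type H3K4me3 interval in their span, against 24.4% of all protein-coding genes, and 1 (1.54%) had a site, against 5.82% of all protein-coding genes. That gene was Tex11, an X-linked gene required for crossing over in male meiosis. Its sites were chrX:101027800-101028533 and chrX:101049732-101050446, 734 and 715 bp wide and double-marked over their whole widths. The other wild-type intervals in Tex11 were 2294 and 816 bp wide and H3K4me3-only, and none of the 4 was listed in either mutant. With 1 gene on the list, nothing is read from the difference in shares.

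The sites were scattered. The nearest other wild-type interval lay at a median of 43.3 kb (40.7 to 45.8 kb), against 39.5 kb over all wild-type intervals. The nearest EP interval was at a median of 237.7 kb (224.8 to 254.6 kb) and the nearest EK interval at 272.2 kb (254.3 to 291.0 kb), in lists of 3703 and 3307 intervals against 18427 in wild type. For the H3K4me3-only intervals lost under the same width limit these medians were 224.6 and 261.3 kb. The most isolated site, chr2:81917883-81919059, was 1177 bp wide, and the next wild-type interval was 935.8 kb away. Sites at chr9:89294099-89295465, chr7:106671911-106673360 and chr8:104653905-104655357 had their nearest neighbour at 700.9, 616.7 and 602.2 kb. None of these 4 lay in a protein-coding gene.

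At the other extreme, 61 sites (2.04%) had a mutant interval within 5 kb, 13 (0.434%) within 1 kb and 7 (0.234%) within 500 bp. For H3K4me3-only intervals lost under the same width limit the shares were 2.26%, 0.545% and 0.350%. For broad double-marked intervals lost in both mutants they were 1.57%, 0.290% and 0.0828%. Within 5 kb the share was 24.9% over all wild-type intervals, which include those that overlap a mutant interval. The rule excluded such overlap, so nothing is read from the low shares. Of the 61 sites, EP was nearer at 16 and EK at 23, and the gap was the same at 22. In 12 of the 13 within 1 kb, the mutant interval overlapped another wild-type interval. The exception was chr16:32654972-32656025 in Tnk2, a tyrosine kinase gene. There an interval of 624 bp, the same in EP and EK at chr16:32654268-32654891, ended 80 bp before the site, while the nearest other wild-type interval was 17.6 kb away. The site itself was 1054 bp wide and double-marked throughout. Such mutant intervals without a wild-type counterpart numbered 31 in the EP list and 40 in the EK list. The next closest sites were chr10:52273261-52274647 in Dcbld1, with 166 bp to EP and 157 bp to EK, chr16:54101053-54102063 in no protein-coding gene, with 173 and 162 bp, and chr12:117668067-117669188 in Rapgef5, with 209 bp to both.

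**Figure D4:**
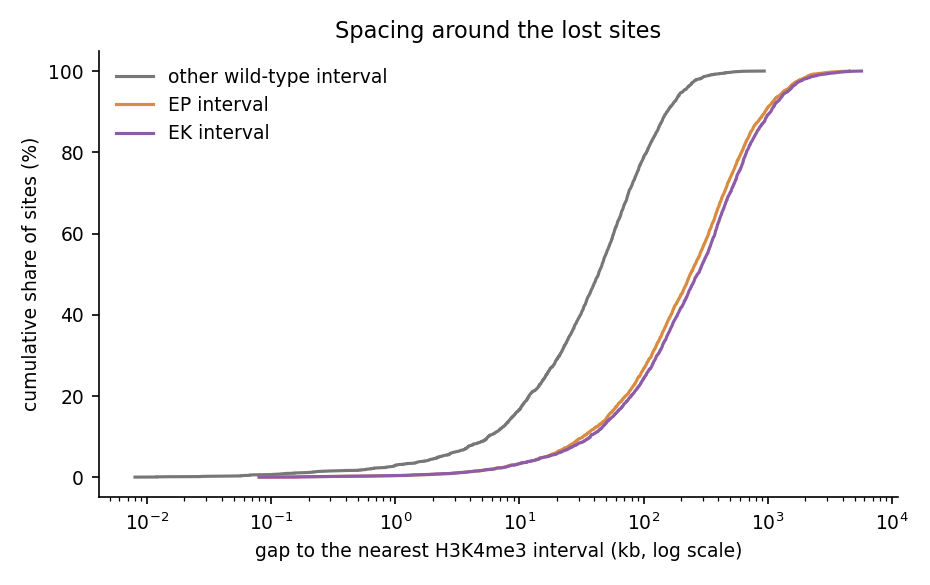
Cumulative share (%) of the 2996 sites against the gap in kb, on a log scale, to the nearest other wild-type, EP or EK H3K4me3 interval. The curve for wild type crosses the middle at 43.3 kb and those for EP and EK at 237.7 and 272.2 kb.

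The marking of the neighbouring interval was compared with that around H3K4me3-only intervals. The nearest other wild-type interval, a measure the rule did not use, was double-marked for 1282 of the 2996 sites (42.8%, 41.0 to 44.6%). It was double-marked for 34.7% of the H3K4me3-only intervals under 1500 bp lost in both mutants (33.7 to 35.8%) and for 36.9% of all wild-type intervals. For the broad double-marked intervals lost in both mutants the share was 43.1% (41.2 to 45.1%), and for the narrow double-marked ones kept in a mutant 40.4% (35.6 to 45.3%), with 95% intervals that overlapped that of the sites. Where the neighbour lay within 5 kb, as for 264 sites, it was double-marked for 127 (48.1%, 42.1 to 54.1%), against 24.5% of the 890 H3K4me3-only intervals with so close a neighbour (21.8 to 27.4%) and 30.2% over the whole list. The share was 42.4% around broad lost double-marked intervals (35.3 to 49.9%) and 68.8% around the kept narrow ones (56.6 to 78.8%). These close neighbours were lost in both mutants for 206 of the 264 (78.0%, 72.7 to 82.6%), against 80.9% around the H3K4me3-only intervals and 73.7% over the whole list. Of the 264, 73 had another of the 2996 sites as neighbour, and each such mutual pair is counted from both sides. The double-marked intervals that a mutant kept had a close neighbour lost in both mutants in 21 of 64 (32.8%, 22.6 to 45.0%). No test was made of these differences.

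Across the autosomes the sites made up 13.0% of the wild-type intervals on chromosome 17 to 18.6% on chromosome 16. Counted per Mb, they ran from 0.896 on chromosome 17 to 1.44 on chromosome 16. Of the chromosomes with a site, X had the lowest share, with 65 of 622 wild-type intervals (10.5%, 8.28 to 13.1%), and the lowest density, at 0.381 per Mb. Among these chromosomes the density of all wild-type intervals was also lowest on X, at 3.64 per Mb against 6.32 to 8.37 on the autosomes. Of all sites, 2.17% were X-linked (1.71 to 2.76%), against 3.38% of all wild-type intervals (3.12 to 3.65%), 3.82% of the H3K4me3-only intervals under 1500 bp lost in both mutants (3.41 to 4.27%) and 3.60% of the broad double-marked intervals lost in both (2.93 to 4.42%). The double-marked intervals under 1500 bp that a mutant kept were X-linked in 1.54% (6 of 389, 0.709 to 3.32%), so a low X share was not particular to the sites. The share of X-linked wild-type intervals that were double-marked at any width had a 95% interval of 32.3 to 39.9%, and the autosomes ranged from 32.2% to 40.5%. On X 71 double-marked intervals were under 1500 bp wide, and 65 of them (91.5%) were lost in both mutants. No site was on Y, where 8 wild-type intervals were listed.

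**Figure D5:**
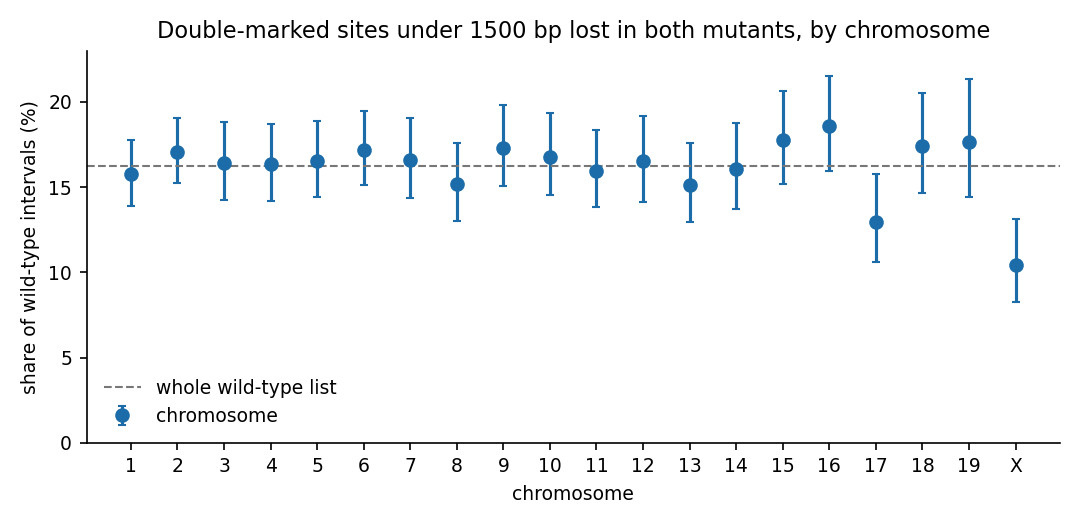
Sites described here as a share (%) of the wild-type H3K4me3 intervals of each chromosome, with 95% Wilson intervals as bars and the share over the whole list, 16.3%, as a dashed line. Chromosome Y, with no site, is not drawn. The X chromosome is lowest at 10.5% and chromosome 16 highest at 18.6%.

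Along the autosomes the sites followed the wild-type list. Mouse autosomes have their centromere near base 1, and the highest coordinate in any list or gene entry stood for the chromosome's length. Of 2931 autosomal sites, 15.3% lay in the fifth of the chromosome nearest base 1 (14.0 to 16.6%), and the following segments of the same length held 22.4%, 20.4%, 21.6% and 20.3%. Over all wild-type intervals the first of these was 15.4% and the last 21.1%. The broad double-marked intervals lost in both mutants held 16.8% in the last (15.3 to 18.4%), and the narrow double-marked intervals that a mutant kept held 24.0% (92 of 383).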

How the data were processed

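H3K4me3 and H3K36me3 ChIP-seq was made from mouse spermatocytes of 3 genotypes, and samples were grouped by their titles. Per the labels, chromatin was fragmented with micrococcal nuclease, and the protocol text names only the H3K4me3 antibody, also for libraries whose antibody field gives H3K36me3. The authors deposited 6 lists of interval positions, which per the description with the files hold peaks detected in mm10 within a predefined peak set of sites that depend on PRDM9. Per the submitters' processing notes, Trimmomatic, BWA 0.7.9a and MACS 1.4 were used, with no threshold or input control given. The lists hold no score or count, so depth is unknown.

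Lists were compared by overlap of at least 1 bp with pandas 2.3.3 and NumPy 2.4.6 in Python 3.11.15, a method tested on simulated intervals. Gaps count the bases between intervals, and coordinates are printed from 1. Shares have 95% Wilson intervals (SciPy 1.17.1) and medians binomial order-statistic intervals. Gene spans and promoter sequences are from RefSeq (GRCm38.p6), which gave positions for 49993 genes. No test was made between groups of intervals. The members and lists were chosen with earlier results of these data known. Sites were named by rule: the 4 widest, narrowest, least and most covered by the double mark, closest to a mutant interval and most isolated, and those at protein-coding promoter windows. One of the named sites is not reported here. Genes named were the 10 with the most sites and those of the recombination list with a site, ties by position. The sequences at non-coding windows and the microRNA were chosen after their values were seen. Alternatives are in the closing section.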

Additional observations from a re-analysis of the deposited data

How the results depend on the processing

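Of 86 values recomputed over 9 alternatives for 12 results, 73 stayed within the 95% interval of the value reported, or for the number of sites within a factor of 1.5, and 13 did not. With a width limit of 1200 bp there were 1318 sites, 82.1% of the double-marked intervals below the limit were lost, the median H3K4me3 width was 1030 bp, the median double-marked width 970 bp, the median coverage 100% and the share in a protein-coding gene 59.5%. With a limit of 1800 bp there were 4451 sites against 2996, which counts among the 73 only because of the factor of 1.5. The median widths were then 1374 and 1207 bp, the coverage 94.3% and the share in a gene 50.5%. Both limits change which widths enter by construction. Counting genes of any biotype gave 62.1% in a gene and 8.68% within 1 kb of a gene end, and a limit of 5 kb gave 13.6%. Overlap of 50% of the shorter interval, midpoints at most 500 bp apart, no mutant interval within 500 bp, autosomes only and a minimum width of 500 bp moved none of these results outside its interval. No paired analysis was possible because there is a single list per genotype, and for the same reason no replicate could be left out. The unknown depth limits what absence from a mutant list can show.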
